A study of Homo sapiens with 6 samples.

Results

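Homologous recombination rejoins broken chromosomes by copying the intact sister chromatid. The MRN complex senses the break, nucleases resect its ends, and BRCA1, PALB2 and BRCA2 load the recombinase onto the single strand. The Fanconi pathway recognizes DNA crosslinks, attaches ubiquitin to FANCD2 and FANCI and hands the lesion to the same machinery, while mismatch repair removes errors of replication and ATM, ATR and their CHEK kinases hold the cell cycle. Many of these genes are transcribed most strongly in cells that replicate DNA, and inherited loss of several of them, BRCA2, PALB2 and ATM among them, predisposes to pancreatic cancer.

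The transcripts of 37 such genes were examined in AsPC-1, an established human pancreatic cancer cell line. The genes were the rows of the deposited table whose symbol stood in a list of DNA break repair, Fanconi anaemia, checkpoint kinase and mismatch repair genes, and all 37 were found among the 58735 genes of the table. One group carried an empty lentivirus (Vector, n = 3) and the other a lentivirus with the MMP28 coding sequence (OE-MMP28, n = 3), where MMP28 is a secreted matrix metalloproteinase. The Vector cells were labelled WT in genotype and the others MMP28 overexpression. The study's methods describe stable lines that were selected with puromycin, and an MMP28 vector that also carried GFP. The labels do not say whether the replicates were separate cultures, so p-values measure the spread between these libraries, which may be technical. The comparison asked which of the 37 transcripts differed between the groups.

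MMP28 was measured first, as the check of the labels. Its level was 5.17, 9.11 and 8.43 FPKM (fragments per kilobase, corrected for gene length and library size) in Vector replicates 1 to 3 and 13.1, 13.9 and 15.1 FPKM in OE-MMP28 replicates 1 to 3. The groups did not overlap. A two-sided exact permutation test returned p = 0.1, below which 3 against 3 libraries cannot go. MMP28 rose by 0.90 on the log2 scale (SE 0.19, adjusted p = 0.00226). Adjusted p-values throughout come from the quasi-likelihood test of edgeR, with the Benjamini-Hochberg correction across every gene that passed the filter, and a gene was called when this value was under 0.05. Total counts were 13633249 to 14985715 in the Vector libraries and 15568066 to 16691458 in the OE-MMP28 libraries. Of the epithelial markers, KRT8, KRT18, KRT19 and EPCAM were at 260.4 FPKM or more in every library, CDH1 was at 10.9 to 22.0 FPKM and KRT7 at 0.597 to 2.22 FPKM. Of 7 macrophage and 7 fibroblast markers, all but CD14 and LUM stayed at 11 counts or fewer per library, and PTPRC, CD163, COL1A2, COL3A1 and PDGFRA at 2 or fewer. CD14 was at 0.569 to 1.04 FPKM, with up to 30 counts, and LUM was at 33.8 to 56.9 FPKM. The summed macrophage list was at 1.06 to 1.19 FPKM in the Vector libraries and 0.934 to 1.06 FPKM in the OE-MMP28 libraries, and the summed fibroblast list at 33.9 to 40.9 and 39.3 to 57.0 FPKM.

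In OE-MMP28 cells 7 of the 37 genes rose and 1 fell. The kinases ATR and CHEK1, the Fanconi genes FANCM and UBE2T, the strand exchange genes RAD51C and XRCC3 and the nuclease EXO1 rose by between 1.44-fold and 1.82-fold, and the ubiquitin ligase FANCL fell to 0.647 of its Vector level. All 37 genes passed the filter on low counts, and each had between 64 and 3354 counts per library. Over all 15319 genes tested, 11.7% were called higher and 11.6% lower, against 18.9% and 2.7% of the 37. The median log2 fold change of the 37 genes was 0.17, beside 0.01 over all genes tested. Values above 0 were found for 29 of the 37 genes, or 78.4%, and for 51.2% of all genes tested. At an unadjusted p under 0.05 the counts were 11 higher and 1 lower, beside 18.2% and 17.6% of all genes tested. On GRCh38 the deposited table placed ATR (ENSG00000175054) at chr3:142449235-142578826, CHEK1 (ENSG00000149554) at chr11:125625136-125676255, FANCM (ENSG00000187790) at chr14:45135940-45200890, UBE2T (ENSG00000077152) at chr1:202331657-202341980. It placed RAD51C (ENSG00000108384) at chr17:58692573-58735611, XRCC3 (ENSG00000126215) at chr14:103697609-103715504, EXO1 (ENSG00000174371) at chr1:241847967-241895148 and FANCL (ENSG00000115392) at chr2:58159243-58241372. The BRCA complex, the FANCD2 to SLX4 group, the break response pair and the mismatch repair pair held no called gene.

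**Figure D1:**
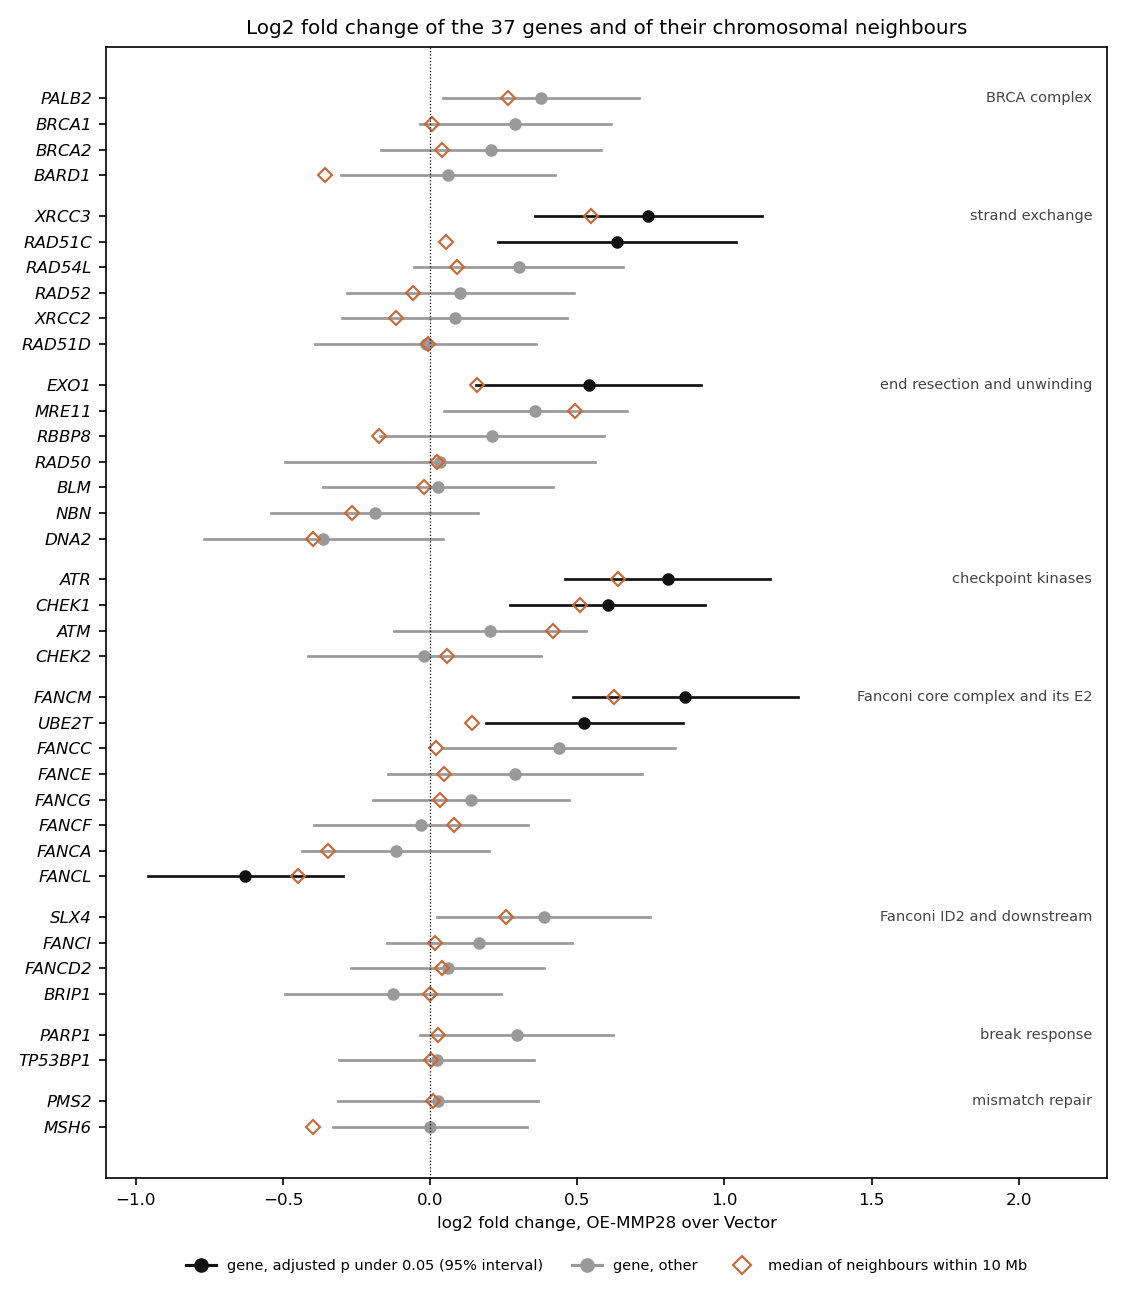
Log2 fold change (OE-MMP28 over Vector) of the 37 genes in 8 role groups, with 95% intervals from edgeR (lines). Black marks the 8 genes with an adjusted p under 0.05, grey the other 29, and open diamonds the median log2 fold change of the genes tested within 10 Mb on the same chromosome. The diamonds of ATR, FANCM, XRCC3 and CHEK1 lie above 0.5 and that of FANCL lies at -0.45.

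Promoters of the 37 genes were searched for CCAAT boxes and E2F sites, which are common in promoters of replication genes. RefSeq promoters (GRCh38.p14, 250 bases before to 50 after the transcription start) were matched for 34 of the 37 genes. The 5 stretches below belong to genes that rose. They end before the start and leave out bases that a GENCODE exon covers. ATR also rose, and its stretch, with 0 CCAAT on either strand, is not shown. EXO1 rose too, but exons covered all 220 bases searched before its start, so it has no stretch. Capitals mark CCAAT on the strand shown or its reverse complement ATTGG. The stretches are UBE2T at chr1:202341981-202342156 (minus strand), FANCM at chr14:45135710-45135929 (plus), XRCC3 at chr14:103715505-103715671 (minus), CHEK1 at chr11:125626035-125626223 (plus) and RAD51C at chr17:58692353-58692572 (plus).
UBE2T: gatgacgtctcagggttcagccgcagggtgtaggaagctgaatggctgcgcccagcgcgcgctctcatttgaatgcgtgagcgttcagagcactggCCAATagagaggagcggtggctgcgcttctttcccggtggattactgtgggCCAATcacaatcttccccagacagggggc
FANCM: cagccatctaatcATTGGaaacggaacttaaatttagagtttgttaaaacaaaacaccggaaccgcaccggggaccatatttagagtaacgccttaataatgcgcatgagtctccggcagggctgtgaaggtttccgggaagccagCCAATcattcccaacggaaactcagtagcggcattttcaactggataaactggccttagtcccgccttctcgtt
XRCC3: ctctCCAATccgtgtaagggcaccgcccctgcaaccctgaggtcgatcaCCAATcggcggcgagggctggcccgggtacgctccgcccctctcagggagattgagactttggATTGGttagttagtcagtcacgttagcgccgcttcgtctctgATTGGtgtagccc
CHEK1: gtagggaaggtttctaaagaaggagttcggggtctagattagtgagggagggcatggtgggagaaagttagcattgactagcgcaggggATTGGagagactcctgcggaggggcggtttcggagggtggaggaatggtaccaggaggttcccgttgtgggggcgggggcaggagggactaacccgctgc
RAD51C: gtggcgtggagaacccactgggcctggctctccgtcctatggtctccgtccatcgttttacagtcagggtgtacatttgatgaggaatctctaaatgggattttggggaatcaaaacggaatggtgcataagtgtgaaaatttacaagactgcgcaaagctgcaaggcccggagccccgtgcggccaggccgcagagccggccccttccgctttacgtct

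The XRCC3 stretch held 4 matches, UBE2T and FANCM 2 each, CHEK1 1 and RAD51C 0. Over whole promoters CCAAT was found in 4 of the 8 called genes and in 16 of the 34 matched genes (47.1%), beside 34.6% of 35093 RefSeq promoters. For each of the 34 genes the promoter nearest its listed start was used. The 35093 could hold several promoters of a gene, so the shares are on unlike units. An E2F type motif (TTTGGCGC, TTTCCCGC, TTTCGCGC or TTTGCCGC) was found in 7 of the 34 (20.6%), beside 3.32% of all promoters. Among the called genes it was found in EXO1 alone, and the other holders were FANCA, FANCC, FANCD2, MSH6, PMS2 and XRCC2. The CHR type motif TTTGAA, which occurs in promoters of mitotic genes, was found in 4 of the 34 (11.8%), UBE2T among them, beside 15.2% of all promoters. Both strands were searched, and no matches of different types overlapped. ATR, RAD51C and FANCL held none of the 3 types in this window. A match describes letters and does not show that a factor binds.

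Among the checkpoint kinases, ATR and CHEK1 rose, and ATM and CHEK2 were not called. The shares over all genes tested were 11.7% higher and 11.6% lower. ATR, the kinase that responds to single-stranded DNA at stalled forks, was at 4.52, 3.40 and 4.14 FPKM in Vector replicates 1 to 3 and at 8.40, 6.81 and 5.79 FPKM in OE-MMP28 replicates 1 to 3. Every OE-MMP28 library lay above every Vector library, and the log2 fold change was 0.81 (SE 0.17, adjusted p = 0.00174). CHEK1, the kinase that ATR activates, was at 13.8, 10.4 and 14.5 FPKM in the Vector libraries and 21.9, 18.9 and 17.5 FPKM in the OE-MMP28 libraries. The groups did not overlap here either, and its log2 fold change was 0.60 (SE 0.16, adjusted p = 0.00938). ATM, the kinase of double-strand breaks, had 5.68, 6.53 and 7.66 against 8.85, 7.19 and 6.68 FPKM, with overlapping groups and a log2 fold change of 0.20 (95% interval -0.12 to 0.53, adjusted p = 0.379). CHEK2, the partner kinase of ATM, had 4.80, 4.41 and 6.72 against 5.74, 4.30 and 5.58 FPKM. Its groups overlapped and its interval was -0.42 to 0.38, so a change of 1.5-fold was outside the intervals of both ATM and CHEK2.

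**Figure D2:**
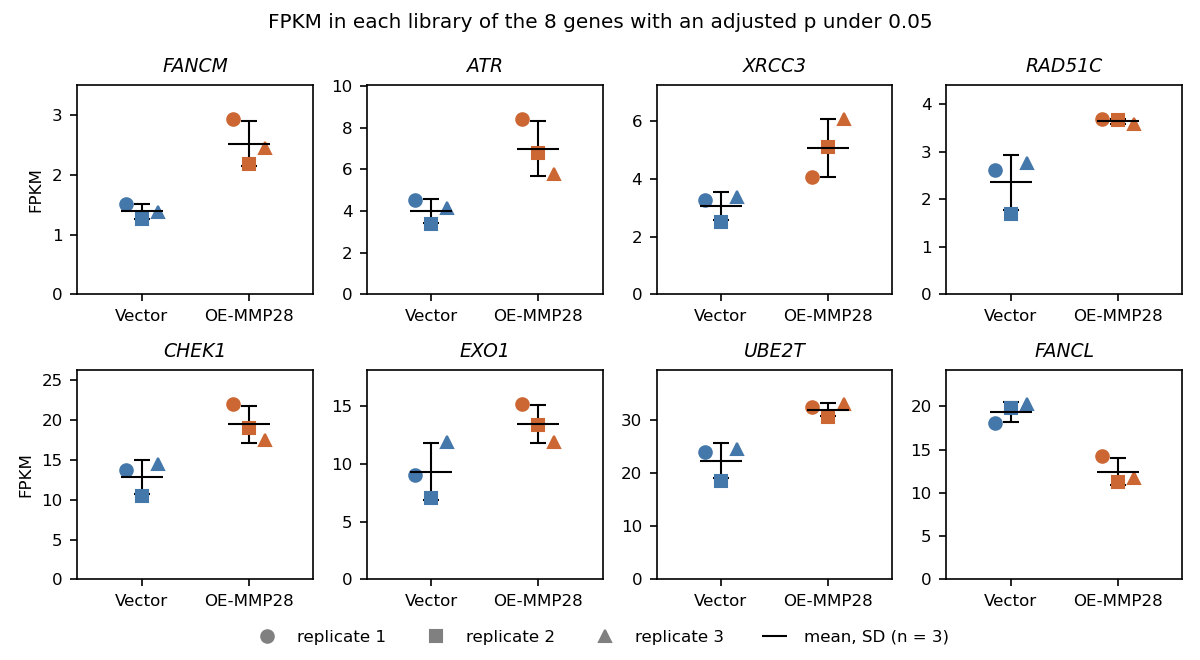
FPKM (linear axis from 0) of the 8 called genes in each library, with 3 symbols for the 3 replicates of each group and black bars for the mean and SD (n = 3). All 3 OE-MMP28 libraries lie above the Vector libraries for 6 of the genes that rose, while for EXO1 Vector replicate 3 and OE-MMP28 replicate 3 are both at 11.9 FPKM, and for FANCL all 3 lie below.

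The Fanconi core complex, with the E2 enzyme that supplies its ubiquitin, had 2 of its 8 genes called higher and 1 lower. Over all genes tested the shares were 11.7% and 11.6%. FANCM, the translocase that anchors the core complex to DNA, was at 1.51, 1.27 and 1.38 FPKM in the Vector libraries and 2.92, 2.17 and 2.45 FPKM in the OE-MMP28 libraries. This was the largest log2 fold change of the 37 genes, 0.87 (SE 0.18, adjusted p = 0.00202), at a low level. UBE2T, the E2 enzyme, had the highest mean level of the 37 genes in the Vector group, with 24.0, 18.6 and 24.6 FPKM against 32.5, 30.6 and 33.0 FPKM. Its groups did not overlap and its log2 fold change was 0.52 (SE 0.16, adjusted p = 0.0226). FANCL, the ubiquitin ligase of the complex and the partner of UBE2T, moved the other way. It was at 18.1, 19.8 and 20.2 FPKM in the Vector libraries and 14.2, 11.3 and 11.8 FPKM in the OE-MMP28 libraries. FANCL fell by 0.63 on the log2 scale (SE 0.16, adjusted p = 0.00718). Exons of VRK2 on the opposite strand cover 18.7% of its exon length, and whether the counting used the strand is not given. VRK2 had 2195 counts over all libraries against 3485 of FANCL, with a log2 fold change of -0.35 (adjusted p = 0.163). Leaving out OE-MMP28 replicate 2 took FANCL to an adjusted p of 0.0616 and UBE2T to 0.0754, and UBE2T had 0.104 without Vector replicate 2 and 0.0622 without OE-MMP28 replicate 3.

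The other 5 core genes were not called. FANCC was at 1.13, 0.872 and 1.25 FPKM in the Vector libraries and 1.36, 1.41 and 1.62 FPKM in the OE-MMP28 libraries. Its groups did not overlap, and its log2 fold change was 0.44 (adjusted p = 0.0992). FANCE had 2.90 ± 0.377 FPKM (SD, n = 3) against 3.52 ± 0.0897 FPKM (SD, n = 3), also without overlap (adjusted p = 0.335). FANCA had 5.27 ± 0.472 against 4.82 ± 0.0918 FPKM (SD, n = 3), FANCF 5.46 ± 0.317 against 5.30 ± 0.287 FPKM and FANCG 11.2 ± 1.21 against 12.2 ± 0.983 FPKM. These 3 subunits overlapped between the groups, and their adjusted p-values were 0.624, 0.923 and 0.573.

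Downstream of the core complex, none of the 4 genes was called. FANCD2 and FANCI are the pair that receives the ubiquitin. FANCD2 was at 4.79, 6.09 and 5.33 FPKM in the Vector libraries and 6.02, 5.49 and 5.26 FPKM in the OE-MMP28 libraries, with an interval of -0.27 to 0.39 on the log2 scale. FANCI was at 10.7, 9.54 and 11.8 FPKM against 13.3, 11.5 and 10.9 FPKM, with a log2 fold change of 0.17 (adjusted p = 0.459). BRIP1, a helicase that binds BRCA1, had a log2 fold change of -0.13 (adjusted p = 0.645). SLX4, a scaffold for nucleases, was at 2.13, 2.27 and 1.76 FPKM against 2.64, 2.50 and 2.84 FPKM. Its groups did not overlap, and its log2 fold change was 0.39 (adjusted p = 0.116).

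Of the 6 strand exchange genes, RAD51C and XRCC3 rose, beside 11.7% of all genes tested called higher and 11.6% lower. Both belong to the CX3 complex, which acts late in recombination. RAD51C was at 2.62, 1.70 and 2.76 FPKM in Vector replicates 1 to 3 and 3.68, 3.66 and 3.58 FPKM in OE-MMP28 replicates 1 to 3. The OE-MMP28 libraries lay close together and above the Vector libraries, whose replicate 2 was lowest, and the log2 fold change was 0.63 (SE 0.19, adjusted p = 0.0219). Its adjusted p was 0.114 without Vector replicate 2, at a log2 fold change of 0.45, and 0.0851 and 0.0559 without OE-MMP28 replicates 2 and 3. XRCC3 was at 3.28, 2.49 and 3.38 FPKM against 4.04, 5.08 and 6.04 FPKM, a log2 fold change of 0.74 (SE 0.19, adjusted p = 0.00667). On chromosome 14, 76.7% of the exon length of XRCC3 lies under exons of KLC1 on the opposite strand, and whether the counting used the strand is not given in the sources used here. KLC1 had 5817 counts over all libraries against 2851 of XRCC3, with a log2 fold change of 0.41 (adjusted p = 0.0534), so the XRCC3 level is uncertain. With limma on log2(FPKM + 1) the adjusted p was 0.0721 for RAD51C and 0.0519 for XRCC3.

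RAD51D and XRCC2, members of the other paralog complex, were not called. RAD51D had 1.56 ± 0.252 FPKM (SD, n = 3) against 1.53 ± 0.107 FPKM, and XRCC2 had 8.69 ± 2.17 FPKM against 9.16 ± 1.33 FPKM, with overlapping groups in both. RAD52, an annealing factor, had 3.88 ± 0.708 against 4.14 ± 0.260 FPKM and an adjusted p of 0.732. RAD54L, a translocase that remodels the strand exchange filament, was at 5.23, 5.58 and 6.19 FPKM against 6.99, 7.35 and 6.46 FPKM, without overlap, at a log2 fold change of 0.30 (adjusted p = 0.213).

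In the resection group 1 of 7 genes was called, beside 11.7% of all genes tested called higher and 11.6% lower. EXO1, a nuclease of both long-range resection and mismatch repair, was at 9.04, 7.01 and 11.9 FPKM in the Vector libraries and 15.1, 13.3 and 11.9 FPKM in the OE-MMP28 libraries. Its log2 fold change was 0.54 (SE 0.18, adjusted p = 0.0378), and the groups did not overlap in scaled counts but touched in FPKM. EXO1 was called in 11 of 19 alternatives, the fewest of the 8 called genes, with an adjusted p of 0.0658 without Vector replicate 1, 0.161 without Vector replicate 2, and 0.122 and 0.120 without OE-MMP28 replicates 1 and 2. It was also 0.0567 with upper-quartile scaling and 0.109 with limma on log2(FPKM + 1).

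None of the 3 genes of the MRN complex was called. MRE11, its nuclease, was at 11.3, 10.1 and 11.8 FPKM in the Vector libraries and 16.1, 13.0 and 13.1 FPKM in the OE-MMP28 libraries. Its groups did not overlap, and its log2 fold change was 0.36 (adjusted p = 0.0898). NBN, the subunit that recruits ATM, had 10.7 ± 1.28 FPKM (SD, n = 3) against 9.29 ± 1.92 FPKM and a log2 fold change of -0.19 (adjusted p = 0.453). RAD50 was listed at 0.444 to 0.738 FPKM, the lowest level of the 37 genes, from 560 counts in all, and 79.7% of its exon length is shared with an overlapping gene model on the same strand. Its level is therefore uncertain, since the sources used here do not say how reads in shared exons were counted.

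RBBP8, which starts resection as CtIP, had 14.0 ± 3.45 against 16.1 ± 3.60 FPKM (SD, n = 3). BLM, the helicase lost in Bloom syndrome, had 3.40 ± 0.761 against 3.44 ± 0.530 FPKM. DNA2, a nuclease and helicase, was at 7.58, 5.02 and 8.06 FPKM in the Vector libraries and 6.67, 4.64 and 4.68 FPKM in the OE-MMP28 libraries. It had the second lowest log2 fold change of the 37 genes, -0.36 (SE 0.20, adjusted p = 0.188), and without Vector replicate 2 its adjusted p was 0.0399 at -0.55.

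The 4 genes of the BRCA complex all had log2 fold changes above 0, and none was called. PALB2, the bridge between BRCA1 and BRCA2, was at 6.42, 5.88 and 6.70 FPKM in the Vector libraries and 9.23, 7.79 and 7.51 FPKM in the OE-MMP28 libraries. Its groups did not overlap, and its log2 fold change was 0.38 (SE 0.16, adjusted p = 0.0930). BRCA1 was at 8.07, 6.94 and 8.55 FPKM against 11.1, 9.19 and 8.36 FPKM, with overlapping groups and a log2 fold change of 0.29 (95% interval -0.03 to 0.61, adjusted p = 0.189). BRCA2 was at 2.33, 1.92 and 2.33 FPKM against 3.19, 2.29 and 2.09 FPKM. Its highest value was that of OE-MMP28 replicate 1, and without that library its log2 fold change was -0.0021. BARD1, the partner of BRCA1, was at 4.65, 4.66 and 6.20 FPKM against 6.32, 4.87 and 4.90 FPKM, with an interval of -0.30 to 0.42.

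The mismatch repair pair and the break response pair held no called gene. MSH6, which recognizes single-base mismatches, was at 8.30, 6.06 and 7.77 FPKM in the Vector libraries and 8.26, 7.01 and 6.73 FPKM in the OE-MMP28 libraries, with an interval of -0.33 to 0.33 on the log2 scale. PMS2, the endonuclease that follows recognition, was at 7.74, 7.39 and 7.34 FPKM against 8.84, 7.20 and 6.72 FPKM, with an interval of -0.31 to 0.37. PMS2 shares sequence with pseudogenes, so reads may be split between them. PMS2P1, PMS2P3 and PMS2CL held 1017, 728 and 607 counts over all libraries beside 2729 of PMS2. PMS2CL was called lower, at a log2 fold change of -0.80 (adjusted p = 0.0132). PMS2P1 and PMS2P3 were not called, at 0.32 and -0.0072, so the PMS2 level is uncertain. TP53BP1, which limits resection, had 3.90 ± 0.390 FPKM (SD, n = 3) against 3.93 ± 0.506 FPKM and an interval of -0.31 to 0.35. PARP1, the sensor of strand breaks, was at 23.0, 15.9 and 19.2 FPKM against 24.2, 25.1 and 21.4 FPKM, a log2 fold change of 0.29 (adjusted p = 0.186).

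Of the 29 genes not called, 19 had 95% intervals that lay within a 1.5-fold change in both directions, and for the other 10 the interval reached it. The groups did not overlap in scaled counts for 14 of the 37 genes, 13 with the OE-MMP28 libraries above and 1 with them below, or 35.1% and 2.7%, beside 19.5% and 18.6% of all genes tested. The libraries of a group did not move evenly. Vector replicate 2 was the lowest of its group for 22 of the 37 genes, and OE-MMP28 replicate 1 was the highest of its group for 23. The median deviation of the 37 genes from their mean over the libraries, on the log2 scale, was -0.15, -0.24 and 0.0029 in Vector replicates 1 to 3 and 0.21, 0.05 and 0.0030 in OE-MMP28 replicates 1 to 3. By this median Vector replicate 3 and OE-MMP28 replicate 3 stood at almost the same level.

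The 37 genes were set beside their chromosomal neighbours, the genes tested within 10 Mb on either side. Neighbours had a median log2 fold change of more than 0.4 in either direction around 5 of the 8 called genes, 7 of the 37 genes and 15.1% of all genes tested. In those 5 cases the gene and its neighbour median had the same sign. ATR on chromosome 3 had a log2 fold change of 0.81 and its 81 neighbours a median of 0.64, with 90.1% of them above 0. FANCM on chromosome 14 had 0.87 beside a median of 0.63 over 68 neighbours, and XRCC3 on the same chromosome 0.74 beside 0.55 over 98. CHEK1 on chromosome 11 had 0.60 beside 0.51 over 125 neighbours, and FANCL on chromosome 2 had -0.63 beside -0.45 over 73, of which 9.59% were above 0. The neighbours of RAD51C, UBE2T and EXO1 moved little, with medians of 0.05, 0.14 and 0.16.

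**Figure D3:**
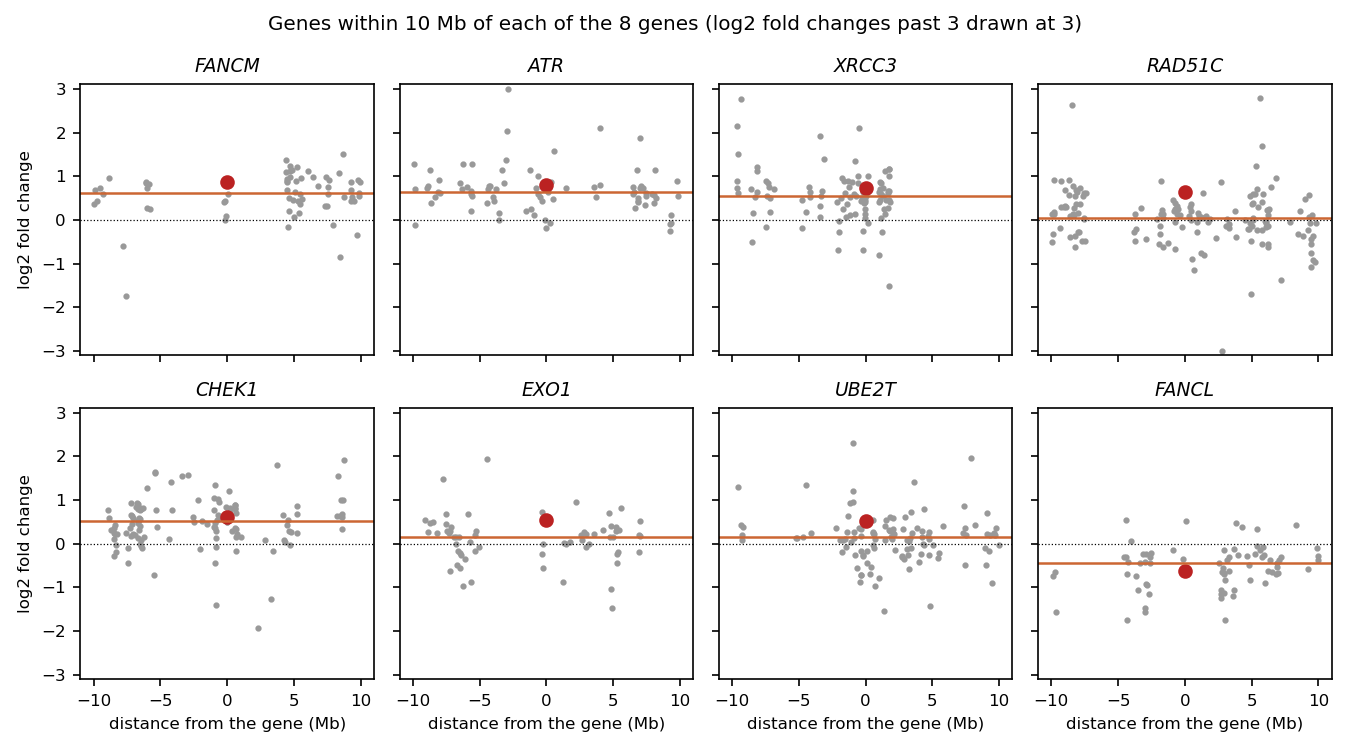
Log2 fold change (OE-MMP28 over Vector) of each gene tested within 10 Mb (grey points) against its distance in Mb from the called gene (red point at 0), for the 8 called genes. The orange line is the median of the neighbours, near 0.6 around ATR and FANCM, 0.05 around RAD51C and -0.45 around FANCL.

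Measured against the local median, entered in the fit as an offset, 1 of the 8 calls stood. RAD51C had a log2 fold change of 0.58 (adjusted p = 0.0469). EXO1 went from 0.54 to 0.38 and UBE2T from 0.52 to 0.38, and neither was called (adjusted p = 0.174 and 0.116). ATR had 0.17, CHEK1 0.09, XRCC3 0.19, FANCM 0.24 and FANCL -0.18, and the adjusted p-values of these 5 ranged from 0.410 to 0.742. Over all genes tested 2325 were called with this offset and 3579 without it. Among the genes not called, MRE11 and ATM on chromosome 11 lay below neighbours with medians of 0.49 and 0.42, while BARD1 and MSH6 on chromosome 2 lay above neighbours with medians of -0.36 and -0.40. Across the 37 genes the log2 fold change and the neighbour median had a Pearson r of 0.81 and a Spearman rho of 0.75, a description over genes that share the same 6 libraries and in part the same neighbours. The r over all genes tested was 0.345. The part of these neighbour shifts in the values of the 37 genes was not tested.

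The neighbouring pathways were read from the same fit, in which 11.7% of all genes tested were called higher and 11.6% lower. Of 49 other recombination and Fanconi genes tested, 9 rose and 4 fell, with a median log2 fold change of 0.23. ABRAXAS1, the scaffold of a BRCA1 complex that trims ubiquitin, fell by 0.78 on the log2 scale (adjusted p = 0.00518). TOPBP1, the activator of ATR, rose by 0.77 (adjusted p = 0.000926), with neighbours at a median of 0.62. CLSPN, the adaptor between ATR and CHEK1, rose by 0.75 (adjusted p = 0.0211), with neighbours at a median of 0.08. Of the 11 other mismatch repair genes, 5 rose and 0 fell, with a median of 0.48. RFC4 and RFC5, subunits of the loader of the sliding clamp, rose by 0.77 and 0.60 (adjusted p = 0.00442 and 0.00712).

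End joining, the route that seals breaks without a template, had 4 of 22 genes higher and 1 lower, with a median of 0.03. Of all genes tested, 11.7% were called higher and 11.6% lower. PARP2, a relative of PARP1, rose from 6.00 ± 1.15 to 12.4 ± 0.894 FPKM (SD, n = 3), or by 1.05 on the log2 scale (adjusted p = 0.000214). RNF168, a ubiquitin ligase at breaks, rose by 0.84 (adjusted p = 0.000903). DCLRE1C, the Artemis nuclease, fell from 4.03 ± 0.573 to 2.06 ± 0.307 FPKM (SD, n = 3), by 0.96 on the log2 scale (adjusted p = 0.000959). Neighbours of these 3 genes had medians of 0.59, 0.39 and -0.45. Of the targets of p53 and the damage response, 3 of 17 were higher and 4 lower, beside the same shares of all genes tested. FAS, a death receptor, fell by 1.43 on the log2 scale (adjusted p = 1e-05), AEN, a nuclease of apoptosis, rose by 0.85 (adjusted p = 0.00345) and BTG2, an antiproliferative factor, fell by 0.79 (adjusted p = 0.0190).

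Of 26 markers of S phase and mitosis, 13 rose and 0 fell, beside 11.7% and 11.6% of all genes tested. Their median log2 fold change was 0.49. MCM2 and MCM5, parts of the replicative helicase, and PCNA, the sliding clamp, rose by 1.15, 0.80 and 0.71 (adjusted p = 0.000112, 0.00104 and 0.00289). Among markers of mitosis, CCNB1 and PLK1 rose by 0.51 and 0.59 (adjusted p = 0.0120 and 0.00874). CDK1, BUB1, AURKB, TOP2A and AURKA were not called, at log2 fold changes of -0.25, -0.18, 0.04, 0.19 and 0.39. MKI67, a marker of cycling cells, was not called, with 37.4 ± 2.27 FPKM against 34.3 ± 4.20 FPKM (SD, n = 3) and a log2 fold change of -0.11 (adjusted p = 0.606). Its neighbours had a median of -0.56, and with the local-median offset it was called higher, at 0.45 (adjusted p = 0.0392). With that offset 18 of the 26 markers were called higher and 0 lower. The summed level of the 26 markers was 561.6 to 711.9 FPKM in the Vector libraries and 851.7 to 911.0 FPKM in the OE-MMP28 libraries, and Vector replicate 2 was the lowest. Without OE-MMP28 replicate 2, 4 of the 26 markers were called higher, and without Vector replicate 2, 8 were. Bulk RNA cannot separate more cells in S phase from more RNA per cell, and the part of this shift in the values of the 37 genes was not tested.

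**Figure D4:**
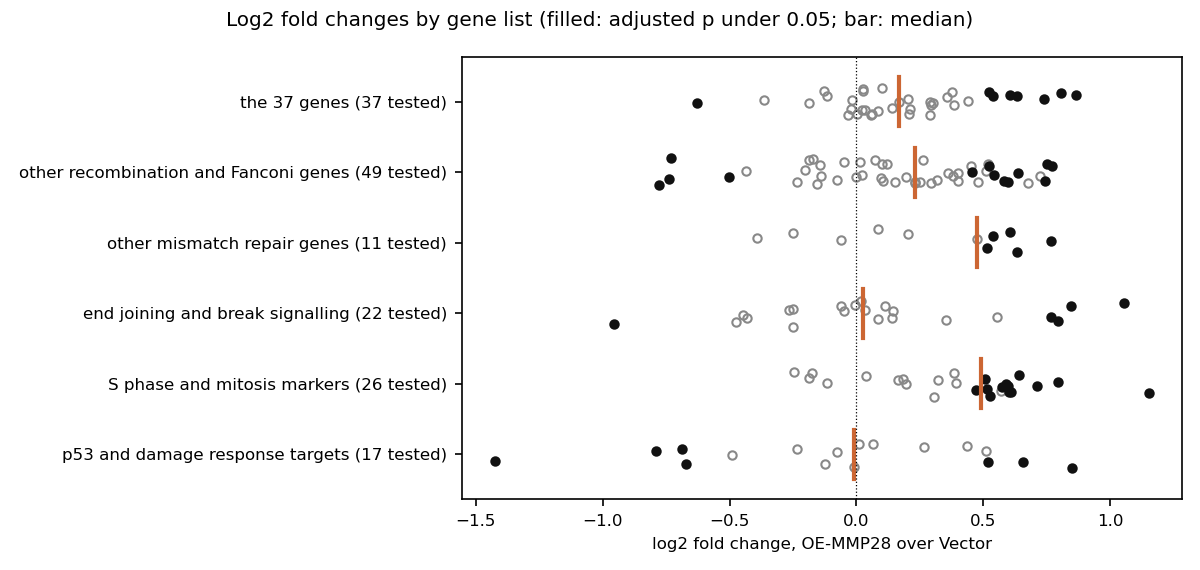
Log2 fold change (OE-MMP28 over Vector) of each gene tested in 6 lists, with filled points for an adjusted p under 0.05 (edgeR) and an orange bar for the list median. The medians are 0.17 for the 37 genes and 0.49 for the S phase and mitosis markers.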

How the data were processed

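RNA of 6 AsPC-1 libraries was sequenced after library preparation with an NEBNext Ultra kit. The authors deposited raw read counts per gene and FPKM values, with HISAT2 2.0.5 and featureCounts 1.5.0-p3 named in the submitters' processing notes. Genome build, annotation and the strand setting are not given in the sources used here, but the identifiers and coordinates of all 58735 genes equalled those of GENCODE release 29 on GRCh38. Exons of genes on the opposite strand also covered 23.6% of the exon length of FANCA, 25.1% of RAD54L, 28.7% of TP53BP1 and 16.2% of MSH6. They covered 16.4% of ATR, by a gene with 0 counts over all libraries, and 11.3% of FANCF. The deposited FPKM values equalled counts divided by gene length with 1 factor per library. The authors' table also held their own group means, fold changes and p-values, which were not used.

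Counts were tested with edgeR 4.0.16 (R 4.3.3): filterByExpr (minimum count 10, minimum total 15), TMM, group as the only term, quasi-likelihood test and Benjamini-Hochberg adjustment over all 15319 genes. Totals of 13633249 to 16691458 counts put the limit of a count of 0, taken as 3 counts, at 0.18 to 0.22 CPM, for counting error only. Alternatives used DESeq2 1.42.0, limma 3.58.1 (voom, or log2(FPKM + 1) and log2(FPKM + 0.1) on genes averaging 0.5 FPKM or more), other scalings, filters and offsets, and each library left out. The local median was taken over genes tested within 10 Mb, without the gene itself. Scripts were tested on simulated counts. The members and lists were chosen with earlier results of these data known. All 37 members could be named, with MMP28, MKI67, PCNA and, per list, the 3 called genes with the largest absolute log2 fold change, and 1 such gene of the mismatch repair list is not reported here. LUM and the other cell type markers, KLC1, VRK2 and the pseudogenes were named as checks. CCNB1, PLK1, CDK1, BUB1, AURKB, TOP2A and AURKA were named to show the mitosis markers. All 186 list entries were matched, 1 by gene ID and 1 by an older symbol.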

Additional observations from a re-analysis of the deposited data

How the results depend on the processing

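Over 703 alternative fits of the 37 genes (19 settings), 628 kept the direction and the side of the threshold, 25 lost a call, 1 gained one and 49, over 17 genes that were not called, changed sign. Scaling moved the median of all genes by less than 0.1 on the log2 scale. With limma on log2(FPKM + 1) and log2(FPKM + 0.1), 4 of the 37 genes were higher, and the counts over all genes were 1009 and 1000 higher and 965 and 970 lower. The local-median offset left 1 of the 37 higher and 0 lower, and 1101 genes higher over all; the cause was not tested.

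Leaving out 1 library gave 4 to 7 of the 37 genes higher, 0 to 2 lower, 985 to 1916 of all genes higher and 1044 to 1949 lower, with the lowest counts of all genes without OE-MMP28 replicate 2. Without Vector replicate 3, 1136 genes were higher. The S phase and mitosis markers called higher numbered 4 to 15, other recombination and Fanconi genes 3 to 10 and other mismatch repair genes 3 to 5, with 0 to 1 of the last lower, and end joining genes lower 1 to 2.

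With log2(FPKM + 0.1) 8 S phase and mitosis markers were higher, and with the local-median offset 18. Other recombination and Fanconi genes higher numbered 4 with either pseudocount and 3 with the local-median offset, which left 2 lower. Other mismatch repair genes higher numbered 3 with either pseudocount and 1 with that offset. End joining genes higher numbered 1 and lower 0 with that offset. End joining genes lower numbered 2 under RLE size factors, no filter, the strict filter, DESeq2, protein-coding genes only, the counts without mitochondrial genes and the replicate block, and 3 with upper-quartile scaling.

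The sign changed under the local-median offset for NBN (0.076), MRE11 (-0.14), DNA2 (0.036), ATM (-0.21) and FANCA (0.23), and under the gene-length offset for RAD51D (0.028). Upper-quartile scaling gave RAD50 -0.016, BLM -0.023, TP53BP1 -0.028, MSH6 -0.046 and PMS2 -0.021. Without mitochondrial genes BLM was at -0.0033, TP53BP1 at -0.0070, MSH6 at -0.029 and PMS2 at -0.0028. The strict filter gave TP53BP1 -0.0017 and MSH6 -0.020. MSH6 was also at -0.016 with RLE size factors, -0.0091 with no filter, -0.010 with DESeq2, -0.0018 and -0.0012 with limma on log2(FPKM + 1) and log2(FPKM + 0.1), and -0.019 with protein-coding genes only.

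Leaving out 1 library, the log2 fold change ranged from -0.080 to 0.21 for BARD1, -0.0021 to 0.32 for BRCA2, -0.10 to 0.12 for RAD51D, -0.095 to 0.27 for XRCC2, -0.11 to 0.23 for RAD50, -0.11 to 0.23 for BLM, -0.14 to 0.19 for CHEK2, -0.068 to 0.014 for FANCF, -0.020 to 0.15 for FANCD2, -0.057 to 0.12 for TP53BP1, -0.12 to 0.094 for MSH6 and -0.10 to 0.10 for PMS2.

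Replicates of one number in both groups did not deviate together (r = 0.0168, 0.00798 and -0.0876), so the numbers were not read as pairs. With the replicate block 7 of the 37 genes were higher and 1 was lower, as without it.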
